A study of Mus musculus with 2 samples.

Results

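Pachytene spermatocytes are the male germ cells in the long middle stage of the first meiotic prophase, and their transcripts were read from single-cell RNA sequencing of mouse testis. In each of 2 libraries, among cell barcodes with 5000 or more unique molecular identifiers (UMIs, tags that count each captured transcript once), the 500 barcodes with the highest share of UMIs from 8 genes were taken as pachytene cells. The 8 genes were Piwil1, Hist1h1t, Gml, Tex101, Lypd10, Lypd11, Aym1 and Cyp19a1. This gave 1000 pachytene cells of 26466 barcodes in all. There was 1 library per group. The first is labelled as testis of mice on a high-fat diet and is called the high-fat library. The labels of the second give no diet, so it is called the no-diet-label library. In the study, 20 male C57 BL/6 mice, 5 weeks old at the start and with no transgene or treatment named, had 1 week of adaptation on maintenance feed. For the next 12 weeks, 10 were given feed in which fat supplied 60% of the kilocalories, and 10 stayed on maintenance feed. The sources used here give neither the number of mice behind a library nor whether the no-diet-label library is the normal-diet group. Both libraries came from tissue digested with collagenase IV and DNase, strained, and captured in droplets with a DNBelab C series kit. The cell type label of both libraries reads germ cells, but no step that selects them is named.

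In pachytene cells the homologous chromosomes are joined along their whole length by the synaptonemal complex while crossovers mature. The X and Y chromosomes, which have little to pair with, are silenced and packed into the sex body under the DNA damage kinase ATR, a state called meiotic sex chromosome inactivation. Transcription of the autosomes rises strongly at this stage, under MYBL1 (A-MYB) among others, and includes the precursors of pachytene piRNAs, small RNAs bound by PIWIL1 and PIWIL2. Many proteins of the later sperm are already transcribed here.

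Promoters of 5 of the 8 genes are printed because the choice of cells rests on these genes and because 3 of them are neighbours on chromosome 7. PIWIL1 is the piRNA-binding slicer of spermatocytes and spermatids, and Hist1h1t encodes the testis linker histone H1t. Tex101, Gml, Lypd10 and Lypd11 belong to the Ly6 family of small surface proteins, of which TEX101 is a glycoprotein of germ cells that male fertility needs in the mouse. Each sequence runs 5′ to 3′ from 250 bases before to 50 bases after the start of the gene (RefSeq, GRCm38.p6), in lower case, with words of the MYB type, the kind that MYBL1 is known to bind, in capitals. The words searched on both strands were AACTGTC, then the word AACTGCC, then the word AACGGTC and then the word AACGGCC, none of which reads as another on the opposite strand. The windows are chr5:128735996-128736295 (plus strand) for Piwil1, chr13:23695561-23695860 (plus strand) for Hist1h1t, chr7:24672001-24672300 (minus strand) for Tex101, chr7:24709009-24709308 (plus strand) for Lypd10 and chr7:24726859-24727158 (minus strand) for Lypd11.
Piwil1: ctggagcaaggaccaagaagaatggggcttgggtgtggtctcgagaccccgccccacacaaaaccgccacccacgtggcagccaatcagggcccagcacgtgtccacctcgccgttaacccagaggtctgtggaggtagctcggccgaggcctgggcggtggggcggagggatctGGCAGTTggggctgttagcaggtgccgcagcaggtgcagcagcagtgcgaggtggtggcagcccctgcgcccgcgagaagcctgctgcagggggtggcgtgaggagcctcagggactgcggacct
Hist1h1t: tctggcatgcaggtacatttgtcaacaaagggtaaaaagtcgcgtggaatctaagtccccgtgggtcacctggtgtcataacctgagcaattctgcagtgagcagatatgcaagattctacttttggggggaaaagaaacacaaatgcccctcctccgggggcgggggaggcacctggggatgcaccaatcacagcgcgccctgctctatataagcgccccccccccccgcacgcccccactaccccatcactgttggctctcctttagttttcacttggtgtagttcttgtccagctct
Tex101: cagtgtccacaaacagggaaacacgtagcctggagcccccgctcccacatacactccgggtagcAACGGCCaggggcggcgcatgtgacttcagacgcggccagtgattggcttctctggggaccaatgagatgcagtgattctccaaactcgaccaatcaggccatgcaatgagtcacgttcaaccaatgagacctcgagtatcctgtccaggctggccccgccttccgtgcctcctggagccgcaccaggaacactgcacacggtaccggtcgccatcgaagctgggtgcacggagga
Lypd10: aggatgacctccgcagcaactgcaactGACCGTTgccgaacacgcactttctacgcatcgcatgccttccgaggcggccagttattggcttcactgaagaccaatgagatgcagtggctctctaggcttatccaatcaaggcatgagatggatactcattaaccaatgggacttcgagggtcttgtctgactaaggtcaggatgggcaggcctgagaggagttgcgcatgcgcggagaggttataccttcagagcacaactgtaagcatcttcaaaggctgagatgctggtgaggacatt
Lypd11: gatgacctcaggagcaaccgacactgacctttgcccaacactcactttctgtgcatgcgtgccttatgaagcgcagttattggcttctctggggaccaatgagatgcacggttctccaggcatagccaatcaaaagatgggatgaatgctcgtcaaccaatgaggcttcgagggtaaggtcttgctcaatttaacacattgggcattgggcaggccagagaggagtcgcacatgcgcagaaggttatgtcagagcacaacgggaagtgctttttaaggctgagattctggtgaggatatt

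A word was found in the windows of Piwil1 (AACTGCC on the opposite strand, beginning 75 bases before the start), Tex101 (AACGGCC, 186 bases before) and Lypd10 (AACGGTC on the opposite strand, 223 bases before). It was found in 3 of the 7 rule genes with an entry in the table (Gml has none there), against 13.2% of 7889 genes with enough counts in these cells. A gene was counted here if any of its promoters held a word. Counted promoter by promoter, 9.60% of all 32851 held one, a share that cannot be set directly against shares of genes. Among genes at least 2-fold higher in the pachytene cells than in the other barcodes of both libraries, 12.0% of 2198 had a word, and among genes at least 2-fold lower 13.0% of 1113 had one. Beyond the rule genes, words stood in 5 of 18 piRNA pathway genes, 9 of 19 transcription regulators of meiosis, 1 of 13 synaptonemal complex genes and 1 of 21 genes of the sex body and DNA damage response (4.76%). The windows of Tex101, Lypd10 and Lypd11 resemble each other. Tex101 and Lypd11 share an unbroken run of 30 bases, attggcttctctggggaccaatgagatgca, and the longest run that Lypd10 shares is 18 bases with Tex101 and 15 bases with Lypd11. By comparison, the longest run that Tex101 shares with Piwil1 is 9 bases. The word CCAAT, counted on both strands, occurs 4 times in Tex101, 4 times in Lypd10 and 6 times in Lypd11, and 4 or more copies occur in 1.06% of all promoters. These matches describe the letters only and are not evidence of binding. The search for shared runs and for CCAAT was added after the sequences had been seen.

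In all, 12661 barcodes with 201842085 UMIs came from the high-fat library and 13805 barcodes with 207667609 UMIs from the no-diet-label library. The pachytene cells were 500 of 7566 barcodes with 5000 or more UMIs in the high-fat library and 500 of 9745 in the no-diet-label library. Because their number was fixed, it says nothing about how common the stage was. Their UMIs summed to 13868370 in the high-fat library, with a median of 21245 per cell, and to 9775508 in the no-diet-label library, with a median of 14157.5. Levels are given as CPM, the UMIs of a gene scaled to 1000000 UMIs of the summed cells. With 1 library per group no test was possible, so higher and lower compare these libraries and not the diets. Levels carry 95% exact Poisson intervals and ratios exact conditional binomial ones, which cover counting error only. Barcode names are running numbers, of which 1507 occur in both libraries and 4 among the pachytene cells of both. Doublets were kept, and among the 6% of barcodes with the highest Scrublet score were 17 pachytene cells (3.40%) of the high-fat library and 23 (4.6%) of the no-diet-label library.

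Not all selected cells looked alike, and a group of them stood apart by the X chromosome. X-linked genes gave 0.5% or more of the UMIs in 44 of 500 cells (8.80%, exact Clopper-Pearson interval 6.47 to 11.6) of the high-fat library and in 16 of 500 (3.20%, 1.84 to 5.14) of the no-diet-label library. These intervals take the chosen cells of 1 library as independent draws, so they do not measure a difference between libraries or diets. The line at 0.5% was drawn after the spread had been seen, and 12 cells of the high-fat library and 13 of the no-diet-label library lay between 0.4% and 0.6%. The cells at or above the line were shallow, with median UMIs of 6166 against 23675 in the remaining cells of the high-fat library and of 7569 against 14506 in those of the no-diet-label library. They carried more transcripts of earlier prophase. Sycp1, the transverse filament of the synaptonemal complex, had 1243 CPM in them against 144 in the remaining cells of the high-fat library, and 769.6 against 117 CPM in the no-diet-label library. Dmc1, the meiotic strand exchange recombinase, had 149 against 0.893 CPM in the high-fat library and 219 against 1.25 CPM in the no-diet-label library. Prss50, a testis protease, had 359 against 1.64 CPM in the high-fat library and 398 against 0.623 CPM in the no-diet-label library, but Prss50 and Dmc1 are among the markers of the leptotene and zygotene set. Tex101, a gene of the rule, was higher in them, with 1420.2 against 371 CPM in the high-fat library and 1181 against 540.0 CPM in the no-diet-label library. Piwil1 was lower, with 191 against 672 CPM in the high-fat library and 431 against 857 CPM in the no-diet-label library. The spermatid list was also higher in them, 0.956% against 0.153% of UMIs in the high-fat library and 0.969% against 0.106% in the no-diet-label library, and the Sertoli list likewise, 0.0429% against 0.00466% in the high-fat library and 0.0352% against 0.00213% in the no-diet-label library. Gm42418, which overlaps ribosomal RNA, had 41966 against 10814 CPM in the high-fat library and 36041 against 16589.9 CPM in the no-diet-label library. Malat1, a nuclear noncoding RNA, had 543 against 78.8 CPM in the high-fat library and 299 against 118 CPM in the no-diet-label library. The part of other cells' RNA and of RNA quality in this was not tested. The X-linked genes, the gene pairs, the order of the cells and the main gene lists are also given without these cells. Since the line was drawn on the summed X-linked share, X-linked genes were bound to be higher in the cells above it and lower without them, so their values by this line are descriptions and support nothing.

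The cells were chosen by the measured UMI shares of the genes of the rule, so their levels are a description. Piwil1 had 657 CPM in the high-fat library (95% interval 644 to 671) and 850.5 CPM in the no-diet-label library (832 to 869). Hist1h1t had 388 CPM in the high-fat library (95% interval 377 to 398) and 450.4 CPM in the no-diet-label library (437 to 464), and Tex101 had 403 CPM in the high-fat library (95% interval 392 to 414) and 549.8 CPM in the no-diet-label library (535 to 565). In the other barcodes of 5000 or more UMIs these 3 genes lay between 20.7 and 52.1 CPM. Cyp19a1, which encodes aromatase, the enzyme that makes oestrogens from androgens, had 272 CPM in the high-fat library (95% interval 263 to 281) and 421 CPM in the no-diet-label library (408 to 434). Lypd11 had 202 CPM in the high-fat library (95% interval 195 to 209.6) and 261 CPM in the no-diet-label library (251 to 271), Gml had 125 CPM in the high-fat library (95% interval 119 to 131) and 184 CPM in the no-diet-label library (176 to 193), and Aym1, a gene active in early meiosis, had 66.0 CPM in the high-fat library (95% interval 61.8 to 70.4) and 101 CPM in the no-diet-label library (94.6 to 107). Of the 8 genes, these 7 were lower in the high-fat library, with log2 ratios (high-fat over no-diet-label) of -0.63 to -0.22. Lypd10 went the other way, with 286 CPM in the high-fat library (95% interval 277 to 295) and 190.4 CPM in the no-diet-label library (182 to 199). Its log2 ratio was 0.59 (95% interval 0.51 to 0.67) in the pachytene cells and 0.66 in the other barcodes. For Piwil1, Tex101 and Hist1h1t the ratio in the other barcodes lay between -0.10 and 0.06, while Aym1 had -0.60, Lypd11 -0.53 and Cyp19a1 -0.46 there. The chosen cells were 6.61% of the barcodes of 5000 or more UMIs in the high-fat library and 5.13% in the no-diet-label library. Their lowest share of UMIs from the 8 genes was 0.121% (high-fat) and 0.148% (no-diet-label). The cut was thus less strict in the high-fat library, and its part in the ratios of the 8 genes was not tested. The share of UMIs from the 8 genes had a median of 0.220% in the high-fat library and 0.317% in the no-diet-label library, against 0.0114% (high-fat) and 0.0102% (no-diet-label) in the other barcodes. At the edge of the rule, the last cell inside had 7 of 5773 UMIs and the first outside 30 of 24759 in the high-fat library. In the no-diet-label library the last cell inside had 97 of 65706 UMIs and the first outside 9 of 6105. The edge falls within a continuous run of values, not at a gap.

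**Figure D1:**
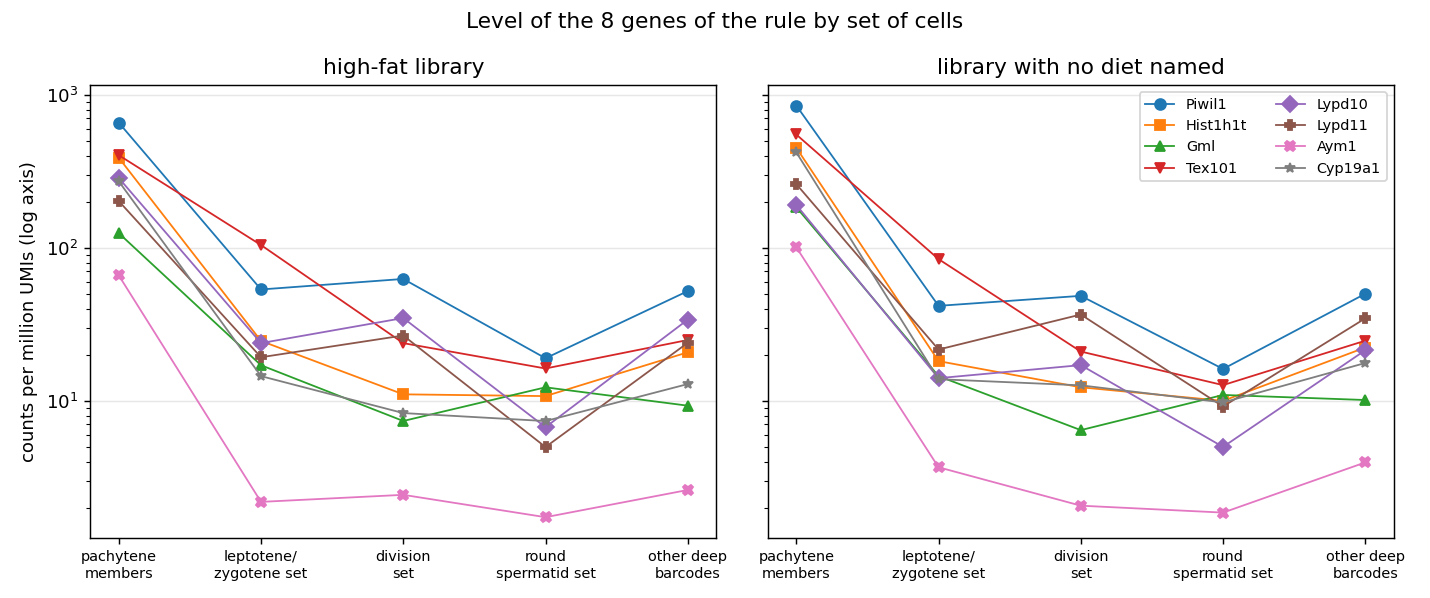
Level of the 8 genes of the rule (CPM, log axis) in pachytene cells and in 4 other sets of barcodes, high-fat library left and no-diet-label library right. Every gene is highest in the pachytene cells that it helped to choose, where Aym1 stood at 66.0 CPM in the high-fat library and 101 CPM in the no-diet-label library, and lines join points of the same gene for reading only.

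Within the pachytene cells the 8 genes did not move as a block. After thinning each cell to 5000 UMIs, Tex101 and Gml rose and fell together, with a Spearman rho over 500 cells of 0.46 in the high-fat library and 0.58 in the no-diet-label library. The same rho was 0.20 in the high-fat library and 0.18 in the no-diet-label library for the neighbours Lypd10 and Lypd11. Piwil1 and Cyp19a1 had 0.37 in the high-fat library and 0.30 in the no-diet-label library. Piwil1 and Tex101 had -0.02 in the high-fat library and 0.30 in the no-diet-label library, so this pair differed between the libraries. These values are descriptions over cells of 1 library that share its depth and the choice by these genes, and low counts hold them down. A median of 5 of the 8 genes was seen per thinned cell in the high-fat library and 6 in the no-diet-label library, and 389 cells (high-fat) and 464 cells (no-diet-label) showed 4 or more.

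The label was set beside gene lists that played no part in the rule. The lists were chosen with earlier results of these data known, so they are not an independent check. As background, 27.1% of the 10536 genes with at least 100 counts in the pachytene cells of both libraries together were 2-fold or more higher than in the other barcodes in both libraries, and 13.9% were 2-fold or more lower. The other barcodes are a mixture in which later germ cells are common, so these folds describe pachytene cells against that mixture. The 100 counts were required in the pachytene cells alone. Genes scarce in them were therefore left out, which holds down the numbers below, for all genes and for each list. Of 16 synaptonemal complex genes, 11 were above and none below. Sycp3, of the lateral elements, had 586 CPM in the high-fat library and 526 CPM in the no-diet-label library, against 164 CPM (high-fat) and 137 CPM (no-diet-label) in the other barcodes. Sycp2, its partner, had 243 CPM in the high-fat library and 329 CPM in the no-diet-label library, against 57.5 CPM (high-fat) and 69.0 CPM (no-diet-label). Sycp1 had 178 CPM in the high-fat library and 127 CPM in the no-diet-label library, against 30.3 CPM (high-fat) and 22.9 CPM (no-diet-label). Tex12, of the central element, had 83.1 CPM in the high-fat library and 86.0 CPM in the no-diet-label library, against 5.05 CPM (high-fat) and 5.47 CPM (no-diet-label), and it was the only list gene of the complex among the 15 genes with the highest fold and 100 counts in each library. Hormad1, which marks unsynapsed axes, had 108 CPM in the high-fat library and 98.6 CPM in the no-diet-label library, and Terb2 and Majin, which tie telomeres to the nuclear envelope, had log2 folds over the other barcodes of 3.05 (high-fat) and 3.66 (no-diet-label) and of 2.21 (high-fat) and 2.02 (no-diet-label). Syce1 and Syce3, of the central element, had log2 folds of 0.15 (high-fat) and 0.05 (no-diet-label) and of 0.11 (high-fat) and 0.21 (no-diet-label), short of 2-fold.

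Of 37 recombination and cohesin genes, 30 had enough counts, and 14 of these were above the other barcodes and 3 below. With cells thinned to 5000 UMIs 7 of 17 with enough counts were above (41.2%, against 27.5% of all genes there), with at least 500 counts 6 of 15 (40.0%, against 25.0%), and in cells under 0.5% X-linked UMIs 10 of 26 (38.5%, against 26.6%). Genes that act at crossovers stood on both sides of the threshold. Mlh3, of the crossover endonuclease, had 28.9 CPM in the high-fat library and 38.4 CPM in the no-diet-label library, against 5.28 CPM (high-fat) and 5.64 CPM (no-diet-label) in the other barcodes. Ccnb1ip1 (HEI10), a ubiquitin ligase of crossover sites, had 14.9 CPM in the high-fat library and 15.5 CPM in the no-diet-label library, against 0.808 CPM (high-fat) and 1.05 CPM (no-diet-label). Hfm1, a crossover helicase, had 36.4 CPM in the high-fat library and 26.5 CPM in the no-diet-label library, and Spata22, a partner of MEIOB, had 4.69 CPM in the high-fat library and 6.65 CPM in the no-diet-label library. Their log2 folds over the other barcodes were 2.90 (high-fat) and 3.43 (no-diet-label) for Hfm1 and 3.77 (high-fat) and 4.41 (no-diet-label) for Spata22. Prr19, Cntd1 and Rnf212, which also act at crossovers, were not 2-fold above in both libraries, with log2 folds of -0.03 (high-fat) and -0.02 (no-diet-label), of 0.91 (high-fat) and 1.31 (no-diet-label) and of 1.23 (high-fat) and 0.60 (no-diet-label). Further sets of barcodes served as landmarks, each the 500 with the highest share of 8 markers of leptotene and zygotene, of the divisions or of round spermatids. Of the leptotene and zygotene set, 387 barcodes (high-fat) and 384 barcodes (no-diet-label) were kept. The remaining 113 (high-fat) and 116 (no-diet-label) were pachytene cells by the rule and were counted as such. How this division bears on comparisons with the leptotene and zygotene set was not tested. Some recombination genes were lower in pachytene cells than in that set. Dmc1 had 5.41 CPM in the high-fat library and 4.603 CPM in the no-diet-label library, against 35.5 CPM (high-fat) and 27.2 CPM (no-diet-label) in those barcodes, but it is one of the 8 markers that chose them, as are Zcwpw1 and Meiob. Dmc1 had 0.893 CPM in the high-fat library and 1.25 CPM in the no-diet-label library in cells under 0.5% X-linked UMIs. Rec8, the meiotic cohesin, had 8.15 CPM in the high-fat library and 5.42 CPM in the no-diet-label library, against 36.5 CPM (high-fat) and 42.1 CPM (no-diet-label), and Tex15, needed for strand exchange in mouse spermatocytes, had 13.0 CPM in the high-fat library and 11.4 CPM in the no-diet-label library, against 78.0 CPM (high-fat) and 81.0 CPM (no-diet-label). Tex15 had 6.69 CPM in the high-fat library and 6.34 CPM in the no-diet-label library in cells under 0.5%. Rec8, Tex15 and Smc3 were the 3 genes of the list below the other barcodes. Spo11, whose protein makes the breaks, had 96.3 CPM in the high-fat library and 74.98 CPM in the no-diet-label library, against 45.6 CPM (high-fat) and 25.5 CPM (no-diet-label), and was higher in the pachytene cells.

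Genes of the sex body and of the DNA damage response that builds it stood out, with 15 of 21 above the other barcodes and none below. Atr, the kinase that starts silencing, had 161 CPM in the high-fat library and 182 CPM in the no-diet-label library, against 29.3 CPM (high-fat) and 29.6 CPM (no-diet-label) in the other barcodes. Topbp1, its activator, had 44.2 CPM in the high-fat library and 55.1 CPM in the no-diet-label library, against 4.36 CPM (high-fat) and 6.61 CPM (no-diet-label). Mdc1, which spreads the H2AX mark into the chromatin loops, had 124 CPM in the high-fat library and 145 CPM in the no-diet-label library, against 26.8 CPM (high-fat) and 30.8 CPM (no-diet-label). H2afx, the histone that ATR phosphorylates, had 201 CPM in the high-fat library and 136 CPM in the no-diet-label library, against 68.0 CPM (high-fat) and 59.8 CPM (no-diet-label). Rad1, Hus1b and Rad9b, parts of the clamps that recruit TOPBP1, had 22.9, 10.6 and 38.9 CPM in the high-fat library and 18.2, 5.93 and 23.4 CPM in the no-diet-label library. All 3 lay at log2 folds of 2.24 or more over the other barcodes in both libraries. Setdb1, the H3K9 methyltransferase of the silenced X, had 37.1 CPM in the high-fat library and 37.6 CPM in the no-diet-label library, against 11.04 CPM (high-fat) and 9.37 CPM (no-diet-label). Between the libraries the list had a median log2 ratio of -0.01, close to the 0.01 of all genes.

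Of 20 piRNA pathway genes with enough counts, 12 were above the other barcodes and none below. Tdrd1, a Tudor scaffold of the germ granule, had 192 CPM in the high-fat library and 239 CPM in the no-diet-label library, against 24.4 CPM (high-fat) and 26.7 CPM (no-diet-label) in the other barcodes. Tdrd5, needed for pachytene piRNAs, had 76.5 CPM in the high-fat library and 94.1 CPM in the no-diet-label library, against 9.87 CPM (high-fat) and 9.39 CPM (no-diet-label). Piwil2 had 110.2 CPM in the high-fat library and 121 CPM in the no-diet-label library, Mov10l1, a helicase of precursor processing, had 55.6 CPM in the high-fat library and 73.1 CPM in the no-diet-label library, and Pld6, a mitochondrial nuclease that cuts piRNA precursors, had 192 CPM in the high-fat library and 119.8 CPM in the no-diet-label library. Mael and Ddx4 were near the mixture, with log2 folds of 0.33 (high-fat) and 0.17 (no-diet-label) and of 0.15 (high-fat) and 0.13 (no-diet-label). Gtsf1, a cofactor of PIWI slicing, had 758 CPM in the high-fat library and 732 CPM in the no-diet-label library, against 1442 CPM (high-fat) and 1487 CPM (no-diet-label) in the barcodes with round spermatid markers. Of 24 transcription regulators of meiosis, 4 were above and 4 below, 16.7% each, against 27.1% and 13.9% of all genes. Mybl1 had 58.6 CPM in the high-fat library and 65.5 CPM in the no-diet-label library, Pou5f2 had 147 CPM in the high-fat library and 129 CPM in the no-diet-label library, Hsf5 had 195 CPM in the high-fat library and 264 CPM in the no-diet-label library and Egr4 had 16.4 CPM in the high-fat library and 8.29 CPM in the no-diet-label library, and these were the 4 above. The 4 below were Crem, Spz1, Fhl5 and Hsf2. Crem, the activator of spermatid genes, had 248 CPM in the high-fat library and 239 CPM in the no-diet-label library, against 643 CPM (high-fat) and 656 CPM (no-diet-label) in round spermatids. Of 24 genes of meiotic exit and division, 2 were above and 6 below. Ccna1, the cyclin of the first division, had 66.8 CPM in the high-fat library and 69.1 CPM in the no-diet-label library, against 311 CPM (high-fat) and 277 CPM (no-diet-label) in the other barcodes, and Ccnb1 had 32.2 CPM in the high-fat library and 33.5 CPM in the no-diet-label library, against 231 CPM (high-fat) and 194 CPM (no-diet-label). The 2 above were Fbxo43, an inhibitor of the anaphase-promoting complex that keeps prophase from ending early, and Sgo1, a guardian of centromere cohesion.

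Of 11 histone variants with enough counts, 7 were above the other barcodes. Hist1h2ba (TH2B) had 6.06 CPM in the high-fat library and 6.96 CPM in the no-diet-label library, against 0.379 CPM (high-fat) and 0.338 CPM (no-diet-label), and its pair Hist1h2aa (TH2A) had log2 folds over them of 4.73 (high-fat) and 4.34 (no-diet-label). H2afy (macroH2A1), which gathers on the sex body, had 185 CPM in the high-fat library and 206 CPM in the no-diet-label library, against 60.0 CPM (high-fat) and 57.1 CPM (no-diet-label). H1fnt, the linker histone of spermatids, was the 1 gene below, with 42.1 CPM in the high-fat library and 24.7 CPM in the no-diet-label library, against 295 CPM (high-fat) and 205 CPM (no-diet-label). All 23 spermatid genes were below the other barcodes, none of them by less than 2-fold. Among genes outside the rule with at least 100 counts in each library, the 15 with the highest fold in both were mostly transcripts without a described role. They were Gm49794, Gm21221, Gm13821, Gm49340, 5330409N07Rik, AC163638.1, AC163638.2, 4930405N21Rik, 4933412L11Rik, 4921513H07Rik, Gm50166, Rnf227, Hist1h2aa, Tex12 and Exosc7, the last a subunit of the RNA exosome. Gm49794 had 113 CPM in the high-fat library and 146 CPM in the no-diet-label library, against 2.97 CPM (high-fat) and 4.09 CPM (no-diet-label), and Gm21221 had 99.3 CPM in the high-fat library and 191 CPM in the no-diet-label library, against 3.20 CPM (high-fat) and 6.03 CPM (no-diet-label). Because of this choice their folds were bound to be high, from 3.93 on the log2 scale upward. Genes of synapsis, of the sex body, of recombination and of the piRNA pathway were above the mixture more often than the 27.1% of all genes, and those of the divisions and of spermatids were not. The list of spermatogonia and meiotic entry was also above more often, with 5 of its 7 genes with enough counts (71.4%), which were the replication and division genes Mki67, Top2a, Pcna and Uhrf1 and the DNA methyltransferase gene Dnmt3b, while Gfra1, a receptor of spermatogonial stem cells, was below. This share leaves out its genes with too few counts. Of those, Stra8, Kit, Zbtb16, Sohlh1, Crabp1 and Mcm2 lay more than 2-fold below in both libraries in cells under 0.5% X-linked UMIs. Gm4969, Dmrt1 and Sohlh2 did not. In cells under 0.5% X-linked UMIs, 11 of 16 synaptonemal genes, 14 of 19 sex body genes and 12 of 20 piRNA pathway genes with enough counts were above. Scml2 of the sex body list was below there, with log2 folds of -1.72 (high-fat) and -3.62 (no-diet-label). It is X-linked, so the line itself lowers it.

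X-linked transcripts were scarce in these cells. The median pachytene cell drew 0.116% of its UMIs from X-linked genes in the high-fat library and 0.132% in the no-diet-label library. From the 5th to the 95th percentile the cells ran from 0.0645% to 1.54% in the high-fat library and from 0.0706% to 0.405% in the no-diet-label library. The barcodes with leptotene and zygotene markers, before silencing, had medians of 0.994% (high-fat) and 0.740% (no-diet-label). The barcodes with round spermatid markers, after meiosis, had 1.25% (high-fat) and 0.889% (no-diet-label). Barcodes with division markers were still low, at 0.183% (high-fat) and 0.164% (no-diet-label). Pooled over all pachytene cells the share was 0.155% (exact interval 0.153 to 0.157) in the high-fat library and 0.151% (0.148 to 0.153) in the no-diet-label library. Those intervals cover counting error of UMIs only. The cells of 0.5% or more supplied 26.6% of the X-linked UMIs in the high-fat library and 12.4% in the no-diet-label library, from 3.06% (high-fat) and 1.54% (no-diet-label) of all UMIs. With protein-coding genes alone the median was 0.0898% in the high-fat library and 0.0726% in the no-diet-label library, so the order of the libraries turned over with the genes counted. Among the noncoding X-linked genes, the pseudogene Rps24-ps3 had 4.04 CPM in the high-fat library and 211 CPM in the no-diet-label library.

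**Figure D2:**
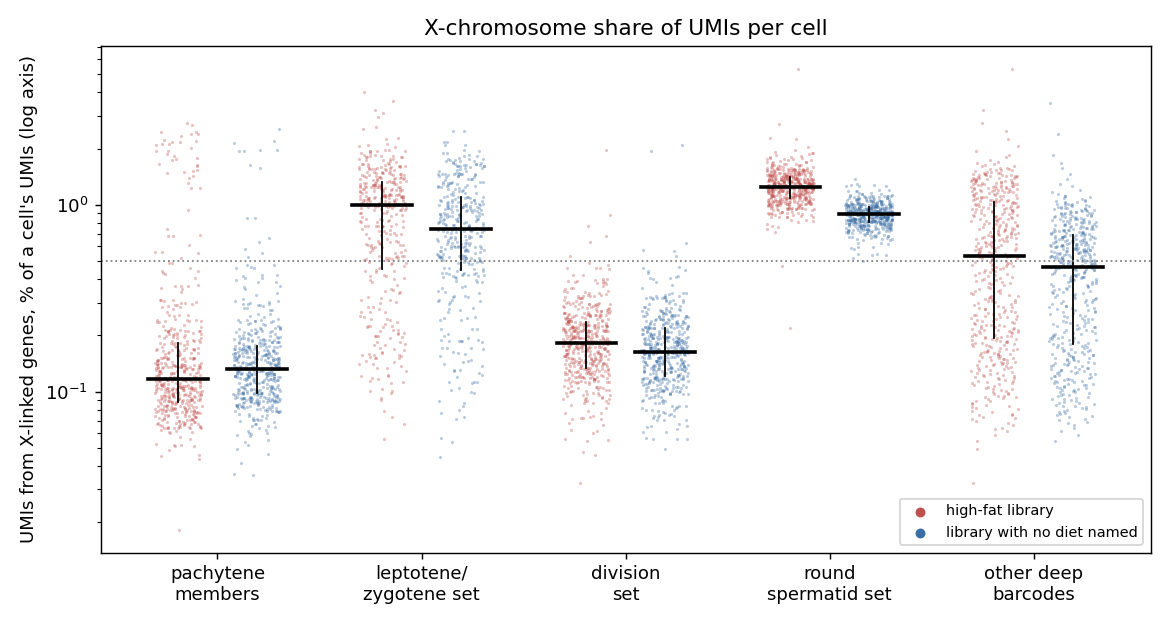
Share of each cell's UMIs from X-linked genes (%, log axis) in 5 sets of cells, high-fat library left and no-diet-label library right in each pair, with 1 point per cell (a random draw of up to 500 of the other barcodes), thick bars at the median and thin bars over the middle 50% of cells. The pachytene cells lie at medians of 0.116% (high-fat) and 0.132% (no-diet-label), below the leptotene and zygotene set at 0.994% (high-fat) and 0.740% (no-diet-label) and the round spermatid set at 1.25% (high-fat) and 0.889% (no-diet-label), and the dotted line marks 0.5%.

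Gene by gene, 72 X-linked genes had at least 100 counts, and 59 of them code for protein. Of the 59, 59 in the high-fat library and 57 in the no-diet-label library were lower in pachytene cells than in the leptotene and zygotene set. Against the round spermatid set, 50 (high-fat) and 48 (no-diet-label) were lower, and 48 were lower than in both sets in both libraries. Counting only cells under 0.5% X-linked UMIs, a choice that lowers X-linked genes by itself, 54 (high-fat) and 52 (no-diet-label) were lower than in round spermatids. How many autosomal genes were lower than the same sets was not counted, so these numbers of X-linked genes have no background beside them. Some of the 59, such as Akap4, are spermatid genes, and all 23 spermatid genes with enough counts were below the other barcodes. Tsga8, a spermatid gene, had 73.9 CPM in the high-fat library and 46.1 CPM in the no-diet-label library, against 1038 CPM (high-fat) and 639.9 CPM (no-diet-label) in round spermatids and 406 CPM (high-fat) and 315 CPM (no-diet-label) in the leptotene and zygotene set. Akap4, of the sperm tail sheath, had 23.4 CPM in the high-fat library and 16.8 CPM in the no-diet-label library, against 302 CPM (high-fat) and 259 CPM (no-diet-label) in round spermatids and 121 CPM (high-fat) and 82.3 CPM (no-diet-label) in the leptotene and zygotene set. Scml2, a germline Polycomb protein that acts on the sex chromosomes, had 7.93 CPM in the high-fat library and 2.15 CPM in the no-diet-label library, against 3.57 CPM (high-fat) and 1.16 CPM (no-diet-label) in round spermatids and 42.7 CPM (high-fat) and 32.6 CPM (no-diet-label) in the leptotene and zygotene set. In cells under 0.5% X-linked UMIs, Scml2 had 1.26 CPM in the high-fat library and 0.208 CPM in the no-diet-label library, while the cells above that line had 219 CPM (high-fat) and 126 CPM (no-diet-label). Usp26, a deubiquitinase gene of germ cells, had 335 CPM (high-fat) and 199 CPM (no-diet-label) in cells above the line, against 2.23 CPM (high-fat) and 4.05 CPM (no-diet-label) in those under it, and for both genes the line itself sets this direction. Ndufa1, a subunit of respiratory complex I, had the highest level of the coding genes that lay above round spermatids in both libraries, with 77.7 CPM in the high-fat library and 83.9 CPM in the no-diet-label library, against 14.1 CPM (high-fat) and 14.7 CPM (no-diet-label) in round spermatids and 90.1 CPM (high-fat) and 74.6 CPM (no-diet-label) in the leptotene and zygotene set. It kept 52.8 CPM in the high-fat library and 74.4 CPM in the no-diet-label library in cells under 0.5%. Scml2, Rpl39, Rpl36a, Fmr1, Map7d2, Gm364 and Pet2 also lay above round spermatids in both libraries, at levels of 2.15 to 9.45 CPM. Map7d2 and Pet2 still lay above round spermatids in both libraries in cells under 0.5%. Rpl39 did not, with 1.71 CPM (high-fat) and 1.97 CPM (no-diet-label) in these cells, against 1.95 CPM (high-fat) and 2.09 CPM (no-diet-label) in round spermatids. Scml2 and Gm364 also lay below round spermatids in both libraries when counted so, while Fmr1 lay below in the high-fat library, with 1.12 CPM, and Rpl36a in the no-diet-label library, with 1.45 CPM. Reads of X-linked genes with autosomal copies may have been split between copies, so these levels are uncertain.

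Several X-linked housekeeping genes have autosomal copies, mostly retrogenes, that germ cells use while the X is silent, and 18 such pairs were read side by side. The X-linked partner was lower in pachytene cells than in the leptotene and zygotene set in 18 of 18 pairs in the high-fat library and 17 of 18 in the no-diet-label library, with median log2 folds of -3.10 (high-fat) and -3.48 (no-diet-label). The autosomal partner was lower in 8 of 18 pairs in the high-fat library and 7 of 18 in the no-diet-label library, with median log2 folds of 0.27 (high-fat) and 0.11 (no-diet-label). In cells under 0.5% X-linked UMIs, where the choice of cells itself lowers X-linked genes, the partner was lower in 18 of 18 (high-fat) and 17 of 18 (no-diet-label) pairs, with medians of -4.25 (high-fat) and -3.83 (no-diet-label), and the autosomal copy in 8 (high-fat) and 7 (no-diet-label), with medians of 0.29 (high-fat) and 0.12 (no-diet-label). Pdha2 had 287 CPM in the high-fat library and 219.5 CPM in the no-diet-label library, against 172 CPM (high-fat) and 143 CPM (no-diet-label) in the leptotene and zygotene set. Its X-linked partner Pdha1 had 0.216 CPM (high-fat) and 0.102 CPM (no-diet-label), against 3.97 CPM (high-fat) and 3.46 CPM (no-diet-label). They encode the E1 alpha subunit of pyruvate dehydrogenase. Cetn1 had 1717 CPM in the high-fat library and 1408 CPM in the no-diet-label library, against 1351 CPM (high-fat) and 1304 CPM (no-diet-label) in the leptotene and zygotene set. Its X-linked partner Cetn2 had 2.596 CPM (high-fat) and 1.13 CPM (no-diet-label), against 22.8 CPM (high-fat) and 17.3 CPM (no-diet-label). They encode centrins of the centriole. Rpl10l had 417 CPM in the high-fat library and 239 CPM in the no-diet-label library, against 294 CPM (high-fat) and 186 CPM (no-diet-label) in the leptotene and zygotene set. Its X-linked partner Rpl10 had 2.74 CPM (high-fat) and 1.84 CPM (no-diet-label), against 33.9 CPM (high-fat) and 37.6 CPM (no-diet-label). Both are proteins of the large ribosomal subunit, and the mouse needs RPL10L for meiosis to finish. Slc25a31 had 139 CPM in the high-fat library and 119 CPM in the no-diet-label library, against 103 CPM (high-fat) and 97.0 CPM (no-diet-label) in the leptotene and zygotene set. Its X-linked partner Slc25a5 had 0.937 CPM (high-fat) and 0.409 CPM (no-diet-label), against 16.1 CPM (high-fat) and 5.84 CPM (no-diet-label). They carry ADP and ATP across the inner mitochondrial membrane. Timm8a2, of mitochondrial import, had the highest fold of the autosomal partners, 59.3 CPM in the high-fat library and 56.8 CPM in the no-diet-label library, against 14.5 CPM (high-fat) and 15.6 CPM (no-diet-label) in the leptotene and zygotene set. In cells under 0.5% Cetn2 had 0.967 CPM (high-fat) and 0.623 CPM (no-diet-label), and Rpl10 had 0.967 CPM (high-fat) and 1.04 CPM (no-diet-label). Timm8a1, the partner of Timm8a2, was the exception of the no-diet-label library, with 1.23 CPM in pachytene cells and 1.08 CPM in the leptotene and zygotene set.

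Some autosomal copies were lower in pachytene cells than later. Pgk2, the glycolytic kinase of sperm, had 151 CPM in the high-fat library and 142 CPM in the no-diet-label library, below the 834 CPM (high-fat) and 805 CPM (no-diet-label) of round spermatids. Ubl4b had 22.6 CPM in the high-fat library and 19.7 CPM in the no-diet-label library, against 534 CPM (high-fat) and 618 CPM (no-diet-label) in round spermatids, and Suv39h2, an H3K9 methyltransferase, had 12.8 CPM in the high-fat library and 9.51 CPM in the no-diet-label library, against 93.6 CPM (high-fat) and 95.4 CPM (no-diet-label). Prps1l1, of nucleotide synthesis, differed most between the libraries among the autosomal copies, with 602 CPM in the high-fat library and 269.6 CPM in the no-diet-label library, a log2 ratio of 1.16 (95% interval 1.10 to 1.22), and 0.77 in the other barcodes. The leptotene and zygotene set is not pure. It also held Prm1, a protamine of spermatids, at 1702 CPM (high-fat) and 681 CPM (no-diet-label) and Clu, a Sertoli transcript, at 103 CPM (high-fat) and 18.2 CPM (no-diet-label), and the part of these other cells in the X-linked levels was not tested. Against the round spermatid set, the X-linked partner was lower in 10 of 18 pairs (high-fat) and 9 of 18 (no-diet-label), and in 15 (high-fat) and 13 (no-diet-label) when cells under 0.5% alone were counted, a move that the choice of those cells brings about.

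**Figure D3:**
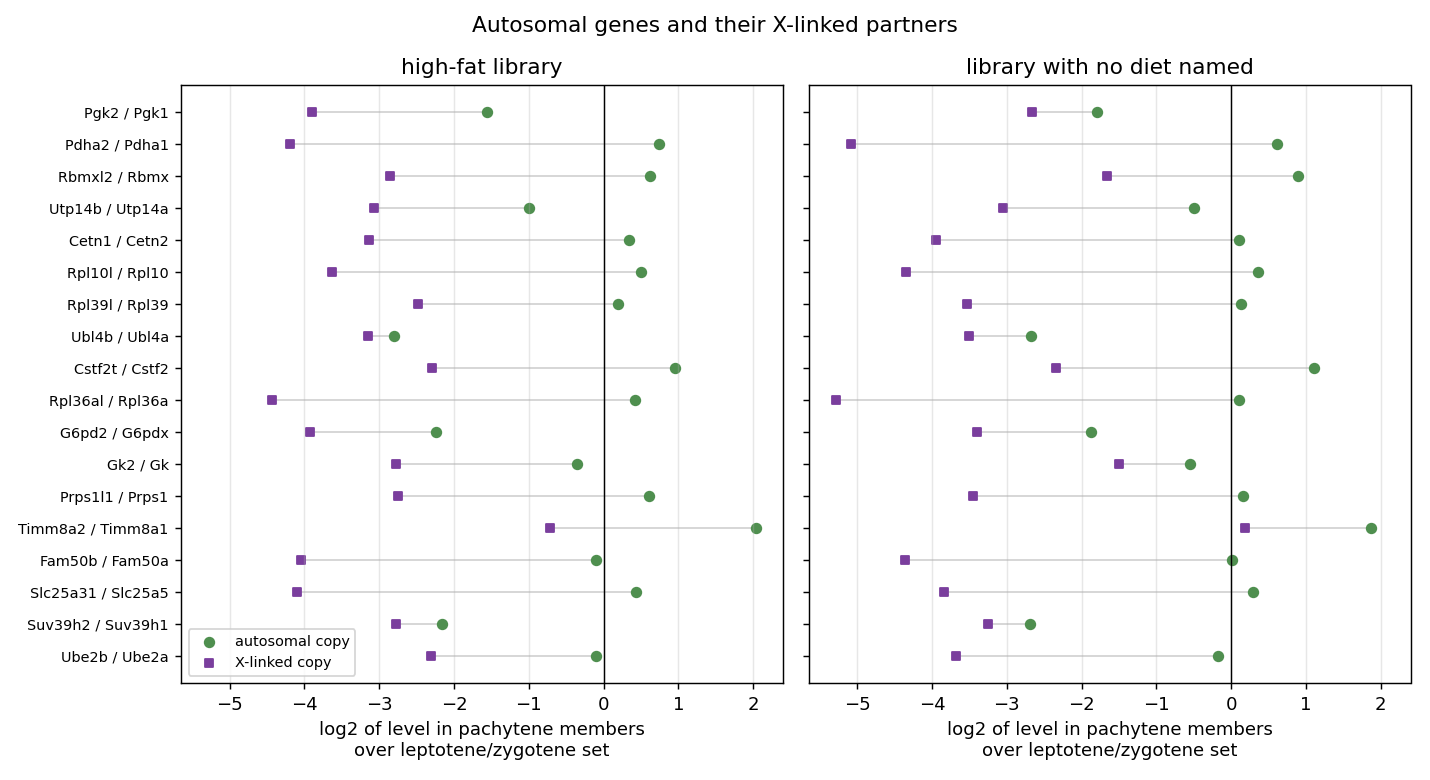
Log2 of the level in pachytene cells over that in barcodes with leptotene and zygotene markers, for 18 autosomal genes (circles) and their X-linked partners (squares), high-fat library left and no-diet-label library right. Every square in the high-fat library and 17 of 18 in the no-diet-label library lie left of 0, while the circles lie on both sides.

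The cells were then ordered within each library by their share of UMIs from Tex101 and Gml, and divided into 4 bins of 125, from the highest share to the lowest. The order uses 2 genes of the rule and was chosen after their joint movement had been seen, so it is a description of how the selected cells differ among themselves. Between bin 1 and bin 4 the genes and lists named below went the same way in both libraries, but some other lists did not. The chaperone list made up 0.911% of UMIs in bin 1 and 0.876% in bin 4 of the high-fat library, and 0.736% in bin 1 and 0.871% in bin 4 of the no-diet-label library. From bin 1 to bin 4, Sycp1 had levels of 528, 156, 105 and 86.5 CPM in the high-fat library and 408, 173, 67.4 and 39.4 CPM in the no-diet-label library. Syce3 had 609, 302, 206 and 136 CPM (high-fat) and 689, 466, 272 and 151 CPM (no-diet-label). The whole synaptonemal list made up 0.428, 0.251, 0.205 and 0.190% of UMIs in the high-fat library and 0.386, 0.280, 0.232 and 0.208% in the no-diet-label library. Piwil2 had 241, 114, 80.7 and 68.6 CPM in the high-fat library and 251, 152, 100.5 and 68.9 CPM in the no-diet-label library, and Hfm1 had 80.2, 41.8, 27.3 and 18.2 CPM (high-fat) and 55.0, 38.6, 19.7 and 14.5 CPM (no-diet-label). H2afx had 272, 268, 181 and 127 CPM (high-fat) and 219, 166, 151 and 80.5 CPM (no-diet-label). All of these were highest where Tex101 and Gml were highest. Markers of other cells moved with the order too. The spermatid list made up 0.256, 0.209, 0.150 and 0.139% of UMIs (high-fat) and 0.124, 0.205, 0.106 and 0.0855% (no-diet-label), and the 8 leptotene and zygotene markers 0.0327, 0.00456, 0.00343 and 0.00174% (high-fat) and 0.0214, 0.00480, 0.00328 and 0.00242% (no-diet-label). Sertoli markers made up 0.0134, 0.00424, 0.00479 and 0.00422% (high-fat) and 0.00570, 0.00458, 0.00160 and 0.00126% (no-diet-label), and the part of other cells in the order was not tested.

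Other genes ran the other way. Pou5f2, a POU factor of spermatocytes, had 14.8, 60.3, 155 and 278 CPM from bin 1 to bin 4 in the high-fat library and 10.2, 20.4, 109 and 242 CPM in the no-diet-label library. Tbpl1 (TRF2), a TBP-like factor of spermatid genes, had 313, 456, 609 and 809 CPM (high-fat) and 271, 381, 536 and 712 CPM (no-diet-label). Ccna1 had 42.0, 58.3, 59.9 and 94.0 CPM in the high-fat library and 29.9, 48.6, 75.9 and 89.1 CPM in the no-diet-label library. Crisp2 and Adam3, proteins of the mature sperm, had 1159 and 172 CPM in bin 1 and 2296 and 519 CPM in bin 4 of the high-fat library. In the no-diet-label library they had 987 and 176 CPM in bin 1 and 2280.1 and 652 CPM in bin 4. The transcription regulators of meiosis made up 0.464, 0.557, 0.657 and 0.731% of UMIs in the high-fat library and 0.443, 0.517, 0.605 and 0.673% in the no-diet-label library. The glycolysis list gave 1.20, 1.61, 1.77 and 1.73% (high-fat) and 1.21, 1.499, 1.75 and 1.89% (no-diet-label). The testis isoforms of respiration gave 1.23, 1.20, 1.07 and 0.925% (high-fat) and 1.36, 1.17, 1.02 and 0.901% (no-diet-label). The respiration list thus had its highest share in bin 1 and the glycolysis list its lowest there, in both libraries. Single genes weighed heavily in these shares of transcripts, which do not measure either process. Ldhc, a lactate dehydrogenase gene, had 7607 CPM in bin 1 and 11128 CPM in bin 4 (high-fat), and 7716 and 12372 CPM (no-diet-label). Cox8c, a cytochrome oxidase gene, had 5792 and 5001 CPM (high-fat) and 6209 and 4420 CPM (no-diet-label). The lists were not counted without these genes. The median X-linked share was 0.154, 0.115, 0.0998 and 0.0987% (high-fat) and 0.162, 0.159, 0.126 and 0.0979% (no-diet-label). Of the cells at 0.5% or more, 36 of 44 (high-fat) and 8 of 16 (no-diet-label) lay in bin 1. Without these cells the bins held 89, 119, 124 and 124 cells in the high-fat library and 117, 118, 124 and 125 in the no-diet-label library. Sycp1 then had 358, 149, 104 and 86.6 CPM (high-fat) and 361, 167, 67.5 and 39.4 CPM (no-diet-label), and Crisp2 had 1235, 1759.5, 2151 and 2297 CPM (high-fat) and 1018, 1374, 1851 and 2280.1 CPM (no-diet-label). Glycolysis gave 1.31, 1.62, 1.77 and 1.73% (high-fat) and 1.25, 1.52, 1.75 and 1.89% (no-diet-label), and the testis isoforms of respiration 1.38, 1.21, 1.07 and 0.926% (high-fat) and 1.40, 1.19, 1.02 and 0.901% (no-diet-label). Depth moved with the order, with median UMIs of 13533, 23647, 33087 and 23537 in the high-fat library and 10817, 12926, 18920.0 and 30832 in the no-diet-label library, and its part was not tested. Among the other rule genes, Lypd11 declined with the order, with 262, 245, 197 and 139.6 CPM (high-fat) and 419, 317, 244 and 184 CPM (no-diet-label). Hist1h1t did not follow it throughout, with 486, 356, 358 and 392 CPM (high-fat) and 499, 437, 473 and 422 CPM (no-diet-label).

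**Figure D4:**
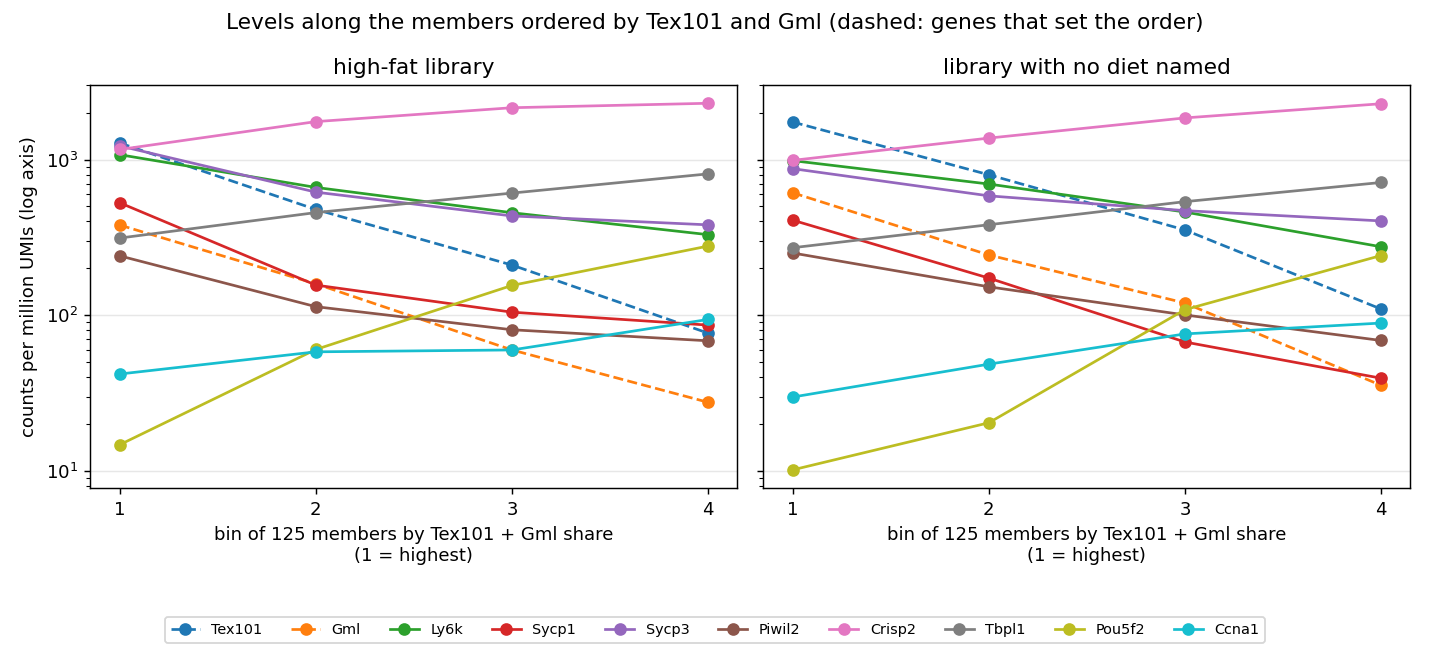
Level of 10 genes (CPM, log axis) in 4 bins of 125 pachytene cells ordered by their share of UMIs from Tex101 and Gml (dashed), high-fat library left and no-diet-label library right. Ly6k, Sycp1, Sycp3 and Piwil2 decline from bin 1 to bin 4 and Crisp2, Tbpl1, Pou5f2 and Ccna1 climb, in both libraries.

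The Ly6 genes next to Gml were also high. On chromosome 15 the RefSeq order is Ly6k, Gml, Gml2. Ly6k, whose protein is a partner of TEX101 in the mouse, had 565 CPM in the high-fat library and 511 CPM in the no-diet-label library, against 130.5 CPM (high-fat) and 132 CPM (no-diet-label) in the other barcodes. Gml2 had 62.9 CPM in the high-fat library and 110.0 CPM in the no-diet-label library, against 4.36 CPM (high-fat) and 7.06 CPM (no-diet-label), and since it resembles Gml, counts may have been split between them. Ly6k followed the order by Tex101 and Gml, with 1074, 662, 455 and 329 CPM from bin 1 to bin 4 in the high-fat library and 983, 696, 460.0 and 275 CPM in the no-diet-label library. Some testis Ly6 genes were not above the other barcodes. Lypd4, of the sperm surface, had 956 CPM in the high-fat library and 1104 CPM in the no-diet-label library, below the 1717 CPM (high-fat) and 2154 CPM (no-diet-label) of the other barcodes, and Lypd9 had 219.8 CPM in the high-fat library and 229 CPM in the no-diet-label library, against 293 CPM (high-fat) and 347 CPM (no-diet-label). Of 23 other Ly6 genes, 8 had enough counts, with 3 above the other barcodes (37.5%, against 27.1% of all genes) and 1 below (12.5%, against 13.9%), and 5 had no count in either library's pachytene cells (Ly6d, Ly6g5c, Lypd2, Lypd3 and Pate4). Psca, with 2.596 CPM in the high-fat library and 11.2 CPM in the no-diet-label library, was the member that differed most between the libraries, at a log2 ratio of -2.10 (95% interval -2.69 to -1.55), against -1.66 in the other barcodes.

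Transcripts of energy metabolism and of the later sperm had high levels in these cells. Ldhc, the lactate dehydrogenase of germ cells, had 10509 CPM in the high-fat library and 10822 CPM in the no-diet-label library, and Meig1, needed for building the sperm tail, had 7999.8 CPM in the high-fat library and 8822 CPM in the no-diet-label library. Fabp9, a fatty acid binding protein of the sperm head, had 5666 CPM in the high-fat library and 5382 CPM in the no-diet-label library, and Cox8c, a testis subunit of cytochrome oxidase, had 5549.5 CPM in the high-fat library and 4964 CPM in the no-diet-label library. Ybx2 (MSY2), which stores mRNA for later translation, had 4942 CPM in the high-fat library and 5541 CPM in the no-diet-label library. In cells under 0.5% X-linked UMIs, Ldhc, Meig1, Fabp9, Cox8c and Ybx2 were short of 2-fold above the other barcodes. Log2 folds there were 0.15 (high-fat) and 0.01 (no-diet-label) for Ldhc and -0.01 (high-fat) and -0.08 (no-diet-label) for Meig1. They were 0.33 (high-fat) and 0.16 (no-diet-label) for Fabp9 and 0.78 (high-fat) and 0.64 (no-diet-label) for Cox8c. For Ybx2 they were 0.64 (high-fat) and 0.63 (no-diet-label). Of 12 testis isoforms of respiration, 3 were above the other barcodes (25%, near the 27.1% of all genes) and none below, and the list gave 1.08% of UMIs in the high-fat library and 1.05% in the no-diet-label library, against 0.647% (high-fat) and 0.674% (no-diet-label) in the other barcodes. Cyct, the testis cytochrome c, had 510.2 CPM in the high-fat library and 552 CPM in the no-diet-label library, against 173 CPM (high-fat) and 151 CPM (no-diet-label) there. Of 22 glycolysis genes only Slc2a3, the glucose transporter GLUT3, was above, with 996 CPM in the high-fat library and 1018 CPM in the no-diet-label library, against 403 CPM (high-fat) and 376 CPM (no-diet-label), and 6 were below (27.3%). In the fatty acid list 4 of 21 were above (19.0%) and 3 below (14.3%), no more than the background above and near it below, with Acsl3 and Acadvl, which activate and oxidise long chains, and Acly and Fasn, of their synthesis, as the 4 above. Of 14 proteasome genes 5 were above (35.7%), among them Psma8, the alpha subunit of the spermatoproteasome, with 307 CPM in the high-fat library and 233 CPM in the no-diet-label library, against 71.8 CPM (high-fat) and 60.6 CPM (no-diet-label). Among RNA-binding proteins Adad2 had 66.1 CPM in the high-fat library and 64.0 CPM in the no-diet-label library, against 5.30 CPM (high-fat) and 4.87 CPM (no-diet-label), and Meioc, which keeps cells in meiotic prophase, had 83.3 CPM in the high-fat library and 109 CPM in the no-diet-label library, against 22.6 CPM (high-fat) and 22.1 CPM (no-diet-label). Of the 25 sperm proteins with early transcription none was above the other barcodes and 4 were below.

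Between the libraries, the germ cell and metabolic lists had medians within 2-fold. As background, 4.85% of the 10536 genes were 2-fold or more higher in the high-fat library and 3.02% were 2-fold or more lower. Of 365 listed germ cell and metabolic genes with enough counts, 9 were higher (2.47%) and 5 lower (1.37%), against 3.34% and 2.13% of the 8981 genes that code for protein. The 9 were Scml2, Aurkc, Pcna, Tnp2, Tcte3, Scarb1, Prdx2, Prdx4 and Jund, and the 5 included Psca, Fasn, Igf1r and Nfe2l2. The median log2 ratio was -0.01 for the synaptonemal complex, -0.07 for recombination, -0.12 for the piRNA pathway and 0.11 for the transcription regulators of meiosis. It was 0.02 for fatty acid metabolism, -0.02 for cholesterol, 0.03 for antioxidant defence, -0.05 for apoptosis and 0.04 for chaperones. With 250 cells per library apoptosis stood at -0.53 and antioxidant defence at 0.15, chaperones ran from 0.13 to 0.23 with thinned cells, 1000 cells or equal weights, and the synaptonemal complex had 0.20 with thinned cells. Glycolysis stood at 0.13 and the testis isoforms of respiration at 0.15. The spermatid list had the highest median of the germ cell lists, 0.43 in the pachytene cells and 0.25 in the other barcodes, with 21 of 23 genes above 0 and 1, Tnp2, past 2-fold. Without the 6% of barcodes with the highest doublet score the spermatid median was 0.70. Its transcripts made up 0.178% of UMIs in the high-fat library and 0.119% in the no-diet-label library, against 1.26% (high-fat) and 0.937% (no-diet-label) in the other barcodes, and the part of other cells in them was not tested. Histone variants had 0.28 in the pachytene cells and 0.13 in the other barcodes, with 9 of 11 above 0 and none past 2-fold. Over all 10536 genes the median log2 ratio was 0.01 and the middle 90% ran from -0.75 to 0.98.

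**Figure D5:**
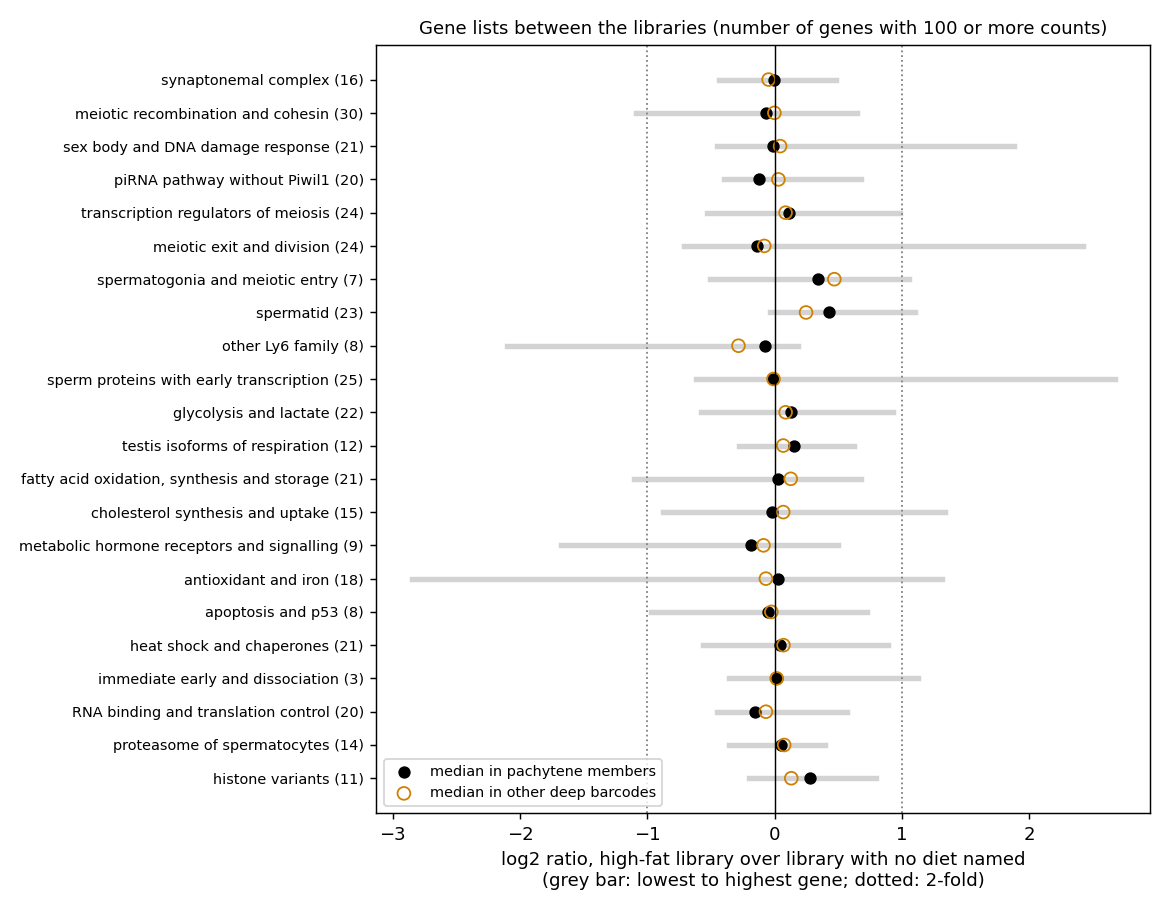
Log2 ratio, high-fat library over no-diet-label library, of 22 gene lists, with filled points for the median in pachytene cells, open points for the median in the other barcodes and grey bars from the lowest to the highest gene. All medians in pachytene cells lie within the dotted lines at 2-fold, the highest at 0.43 for the spermatid list.

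Listed genes past 2-fold are given with others of the same pathways. Fasn, the fatty acid synthase, had 13.0 CPM in the high-fat library and 27.9 CPM in the no-diet-label library, a log2 ratio of -1.11 (95% interval -1.39 to -0.83), against -0.37 in the other barcodes. Igf1r, a growth factor receptor of the insulin family, had 2.31 CPM in the high-fat library and 7.37 CPM in the no-diet-label library, a log2 ratio of -1.67 (95% interval -2.32 to -1.05), against -1.14 in the other barcodes. Scarb1, the receptor for HDL cholesterol, had 8.29 CPM in the high-fat library and 3.27 CPM in the no-diet-label library, a log2 ratio of 1.34 (95% interval 0.76 to 1.95), against 1.53. Srebf2, the regulator of cholesterol synthesis, had 7.43 CPM in the high-fat library and 13.6 CPM in the no-diet-label library, and Mtor, the growth kinase, had 66.0 CPM in the high-fat library and 108 CPM in the no-diet-label library, both short of 2-fold. Pnpla2 and Lipe, the lipases of stored fat, had log2 ratios of 0.55 and 0.68 in the pachytene cells and 0.86 and 1.14 in the other barcodes. Cpt1b, Cpt2, Hadha and Hadhb, of mitochondrial fatty acid oxidation, lay between -0.16 and 0.18. Nfe2l2 (NRF2), the regulator of the oxidative stress response, had 1.66 CPM in the high-fat library and 12.0 CPM in the no-diet-label library, a log2 ratio of -2.85 (95% interval -3.56 to -2.20), and -1.81 in the other barcodes. Of genes known as its targets, Gclm had 0.01, Gclc -0.17 and Txnrd1 0.17, but these 3 are a choice from the antioxidant list. Other genes of that list lay farther apart, in either direction. Prdx1 had 136 CPM in the high-fat library and 84.5 CPM in the no-diet-label library, and Fth1 had 662 CPM (high-fat) and 827 CPM (no-diet-label). Prdx2, a peroxidase, had 19.6 CPM in the high-fat library and 7.88 CPM in the no-diet-label library, and the X-linked Prdx4 had 17.6 CPM in the high-fat library and 8.08 CPM in the no-diet-label library. Prdx4 had 10.6 CPM in the high-fat library and 4.16 CPM in the no-diet-label library in cells under 0.5% X-linked UMIs. Pcna, the replication clamp, had 132 CPM in the high-fat library and 63.7 CPM in the no-diet-label library, a log2 ratio of 1.05 (95% interval 0.92 to 1.19), and 1.54 in the other barcodes. Aurkc, the Aurora kinase of meiotic divisions, had 31.8 CPM in the high-fat library and 5.93 CPM in the no-diet-label library, a log2 ratio of 2.42 (95% interval 2.02 to 2.84), and 2.44 in the other barcodes. Tcte3, a dynein light chain, had 9.16 CPM in the high-fat library and 1.43 CPM in the no-diet-label library, and a log2 ratio of 2.68 (95% interval 1.88 to 3.59), against 2.87 in the other barcodes. Aurkc, Tcte3, Pcna and Scarb1 thus differed by as much outside the pachytene cells as in them.

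X-linked genes were past 2-fold between the libraries more often than all genes, in both directions. Of 72, 16 were 2-fold or more higher in the high-fat library (22.2%, against 4.85% of all genes) and 6 were 2-fold or more lower (8.33%, against 3.02%). The median log2 ratio was 0.65 in the pachytene cells and 0.46 in the other barcodes, where 4 were higher and 6 lower. Most of the 72 had fewer than 500 counts over both libraries. Of the 5908 genes with at least 500 counts, only 141 were higher and 96 lower. All genes are thus not a background matched for counts, and the part of low counts was not tested. In the cells under 0.5% X-linked UMIs, 14 were higher and 6 lower, with a median of 0.52. Among the genes lower in the high-fat library, Rps24-ps3, Gm14513, Rpl21-ps15, Spin2f and Spin2g were at or under 4.04 CPM there and between 17.4 and 211 CPM in the no-diet-label library. Hypm was among the higher genes, with 18.2 CPM in the high-fat library and 7.16 CPM in the no-diet-label library, against 377 CPM (high-fat) and 287 CPM (no-diet-label) in round spermatids. The spermatid list was also higher in the high-fat library, and its part in the X-linked difference was not tested.

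Most of the genes past 2-fold between the libraries were past it outside the pachytene cells too. Of the 511 genes 2-fold or more higher in the high-fat library, 338 (66.1%) were also 2-fold higher there in the other barcodes, and of the 318 lower, 225 (70.8%) were also lower. Of the genes higher, 58.7% code for protein, and of those lower 60.1%, against 85.2% of all genes with enough counts. Leaving out genes with predicted, clone or accession names (such as Gm or Rik names), the 20 genes farthest apart, 10 each way, had 19 or fewer counts in one of the libraries. Atp6ap1l had 193 CPM in the high-fat library and 0.921 CPM in the no-diet-label library, a log2 ratio of 7.71 (95% interval 6.78 to 8.84), and 6.66 in the other barcodes. Dynlt1f, a dynein light chain gene with close copies, had 248 CPM in the high-fat library and 1.94 CPM in the no-diet-label library, a log2 ratio of 6.997 (95% interval 6.35 to 7.73), and 6.32 in the other barcodes. The others at the top were Mirg, Rd3, Tmem181b-ps, Rapgef3, Fam129a, Hacl1, Atp6v0e2 and Cpn1, between 10.9 and 32.4 CPM in the high-fat library and between 0 and 0.614 CPM in the no-diet-label library. Hacl1, an enzyme of peroxisomal alpha-oxidation of fatty acids, had 18.4 CPM in the high-fat library and 0.409 CPM in the no-diet-label library, with 4.90 in the other barcodes. Atp6v0e2 had no count in the no-diet-label library, so it was at least 5.27 on the log2 scale higher, taking 3 counts over the cells as the floor. At the other end, the pseudogene Rpl21-ps15 had 0.144 CPM in the high-fat library and 107 CPM in the no-diet-label library, with a log2 ratio of -9.53 (95% interval -12.58 to -7.68). Ubash3a, a regulator of T cell signalling, had 0.793 CPM in the high-fat library and 59.3 CPM in the no-diet-label library, and -5.69 in the other barcodes on the log2 scale. Nek7, a kinase of spindle assembly, had 0.361 CPM in the high-fat library and 43.3 CPM in the no-diet-label library, with -5.21 in the other barcodes. The rest were Rps15a-ps8, Spin2f, Rtraf-ps, Zfp990, Vnn1, Spin2g and Bfsp1, between 0 and 0.505 CPM in the high-fat library and between 10.2 and 55.8 CPM in the no-diet-label library. Spin2g had no count in the high-fat library, and its log2 ratio was at most -6.33 against the same floor. All 20 of these genes kept their direction in the other barcodes, with log2 ratios of 3.53 or more, or of -5.21 or less.

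A few genes differed between the libraries by another amount in pachytene cells than elsewhere, and the 6 farthest each way are given among genes without a predicted, clone or accession name that also had 100 counts in the other barcodes. Bloc1s6, of lysosome-related organelles, had a log2 ratio of 1.26 (95% interval 0.88 to 1.65) in the pachytene cells and -2.64 in the other barcodes, with 18.3 CPM in the high-fat library and 7.67 CPM in the no-diet-label library. In round spermatids it had 2.27 CPM (high-fat) and 172 CPM (no-diet-label). Myo7a, a motor protein, had 4.57 in the pachytene cells and 1.18 elsewhere, and Rnaseh2b, of ribonuclease H2, had -0.76 and -3.80. Ccndbp1 had -1.45 and -4.51, Rpap3 -1.14 and -4.03, and Vnn1 -6.33 and -11.38 in the same order. Lower than elsewhere stood Spns1, a lysosomal transporter, with 0.27 in the pachytene cells and 3.97 elsewhere. Zfp260 had 1.71 and 4.05, Cmc2 1.11 and 3.20, and Uvrag, of autophagy, 0.51 and 2.61. Zkscan2 had -1.06 and 2.38, and Slc25a13, the aspartate and glutamate carrier of mitochondria, -1.85 and 0.91. Slc25a13 turned to 0.23 in cells under 0.5% X-linked UMIs and to 0.48 in the 250 highest cells per library, and Zkscan2 turned to 0.29 with 1000 cells per library. These 12 genes were picked for this difference, so the values are a description. With all names counted, 6 of the 12 farthest were the same. Of the other 6, Gm21149 had -3.31 in the pachytene cells and 0.72 in the other barcodes, Gm21083 had -3.87 in the pachytene cells and -0.02 in the other barcodes and Gm9732 had 0.74 in the pachytene cells and -2.27 in the other barcodes. The clones 1700101I19Rik, 1700025J12Rik and 4930505M18Rik had 1078, 126 and 179 counts in the pachytene cells of the high-fat library and none in those of the no-diet-label library, so their ratio there is only a lower bound.

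Transcripts of other cell types were traces. Of 10 Sertoli markers, 4 had enough counts, and the list gave 0.00583% of UMIs in the high-fat library and 0.00264% in the no-diet-label library, with a range from the 5th to the 95th percentile of cells of 0 to 0.0380% (high-fat) and of 0 to 0.0148% (no-diet-label). Clu had 8.22 CPM in the high-fat library and 2.35 CPM in the no-diet-label library, Cst9 had 8.94 CPM in the high-fat library and 0.614 CPM in the no-diet-label library and Defb19 had 22.4 CPM in the high-fat library and 11.3 CPM in the no-diet-label library. With Ctsl, at 12.4 CPM in the high-fat library and 7.06 CPM in the no-diet-label library and at 7.51 CPM in the high-fat library and 5.61 CPM in the no-diet-label library in cells under 0.5% X-linked UMIs, all 4 had log2 ratios above 0, as in the other barcodes. Leydig markers (6 genes) gave 30 counts in the high-fat library and 19 in the no-diet-label library, and immune markers (9 genes) gave 106 (high-fat) and 26 (no-diet-label). Myoid and endothelial markers (6 genes) gave 96 (high-fat) and 55 (no-diet-label) counts, and stroma markers (5 genes) gave 21 (high-fat) and 54 (no-diet-label). Hsd3b6 of the Leydig list, Lum of the stroma list and Lyz2 of the immune list were at 0 in the high-fat library. Cyp11a1, Pdgfra, Lyz2, C1qa, Adgre1 and the Sertoli gene Wt1 were at 0 in the no-diet-label library. The list of spermatogonia and meiotic entry gave 0.0324% of UMIs in the high-fat library and 0.0278% in the no-diet-label library. In the leptotene and zygotene set it gave 0.0740% (high-fat) and 0.0560% (no-diet-label). Its highest levels were those of Pcna, Top2a and Uhrf1, so the sum does not measure spermatogonia. Pcna had 132 CPM (high-fat) and 63.7 CPM (no-diet-label), Top2a 91.4 and 130 CPM, and Uhrf1 64.8 and 50.6 CPM. Kit, of the same list, had 0.505 CPM (high-fat) and 0.614 CPM (no-diet-label), and Zbtb16 0.361 and 0.818 CPM. The part of other cell types in the differences between the libraries was not tested. Immediate early genes, which dissociation can induce, gave 0.00416% of UMIs in the high-fat library and 0.00400% in the no-diet-label library, below the 0.0105% (high-fat) and 0.00906% (no-diet-label) of the other barcodes. Gm42418 had 11766 CPM in the high-fat library and 16889.8 CPM in the no-diet-label library, and its removal from the totals together with CT010467.1 moved none of the recomputed list medians and gene ratios beyond their spread or counting interval.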

How the data were processed

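Transcripts of testis cells were counted in 2 droplet libraries, 1 per group. The deposited matrices hold whole-number UMI counts per gene and barcode, written with PISA 1.0 per the file headers, and the submitters' processing notes name Cell Ranger 2.1.1. The sources used here name no genome build, annotation or barcode filter for the counts. Both libraries were read with Python 3.11.15, numpy 2.4.6, scipy 1.17.1, pandas 2.3.3 and scanpy 1.11.5, and plotted with matplotlib 3.10.9. Barcodes of 5000 or more UMIs were ranked by the summed share of the 8 genes, and the 500 highest per library were kept. Counts were summed over the cells of a set and scaled to the set's UMIs (CPM). Genes needed 100 counts over both libraries, and 2-fold was the threshold for higher, lower, above and below. Gene kind and chromosome came from GENCODE M21, and promoters from RefSeq GRCm38.p6. The interval code was tested on simulated data. Some genes are not reported here. The pachytene cells and gene lists were chosen with earlier results of these data known. Named genes were the 8 of the rule, the 10 highest and 10 lowest library ratios among genes without a predicted name, the 6 each way whose ratio lay farthest from that in the other barcodes (with the same limit on names, and 100 counts there too), the 15 highest folds over the other barcodes with 100 counts in each library, and members of the lists and gene pairs. The order by Tex101 and Gml, the 0.5% line on the X chromosome, the Ly6 neighbours and the CCAAT search were chosen after the data had been seen. Reads of near-identical copies, such as Gml and Gml2, Lypd10 and Lypd11, or retrogenes and their parents, may have been split between them. Alternatives changed the number of cells, the UMI minimum, the genes of the rule, the depth, scaling and weighting, the count minimum, the size of the comparison sets, doublets and single cells.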

Additional observations from a re-analysis of the deposited data

How the results depend on the processing

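Of 445 alternative values of the main results, 412 stayed within the spread or interval of the reported value (counts within 1.5 times), and 33 moved. The median X-linked share of the no-diet-label library was 0.148% with 250 cells per library, 0.119% with 1000, 0.117% with a minimum of 10000 UMIs, 0.14% with cells thinned to 5000 UMIs and 0.0726% with protein-coding genes. That of the high-fat library was 0.102% with 10000 UMIs and 0.0898% with protein-coding genes. Genes 2-fold or more higher in the high-fat library numbered 330 (250 cells), 892 (1000 cells), 170 (thinned), 1447 (at least 20 counts) and 141 (at least 500 counts), against 511. Those lower numbered 183, 518, 142, 853 and 96 under the same settings, against 318. The counts depend by construction on how many genes are tested. Among list medians of the log2 ratio, 250 cells gave 0.082 for early sperm proteins, 0.15 for antioxidant genes and -0.53 for apoptosis. With 1000 cells the synaptonemal complex had 0.15, the piRNA pathway 0.030 and chaperones 0.17. Chaperones had 0.23 with cells weighted equally and 0.13 when thinned, and the synaptonemal complex 0.20 when thinned. Respiration had 0.042 thinned, 0.055 with at least 20 counts and 0.044 in cells under 0.5% X-linked UMIs. Without the 6% highest doublet scores, the spermatid list had 0.70 and glycolysis 0.27. Recombination genes above the other barcodes numbered 7 when thinned and 6 with at least 500 counts, against 14. Of 756 values of log2 ratios of 54 single genes 630 stayed within their counting interval (bounds, which have none, near their value), 123 moved out of it and 3 reversed, Slc25a13 to 0.48 with 250 cells and to 0.23 in cells under 0.5% X-linked UMIs, and Zkscan2 to 0.29 with 1000 cells. The cause was not tested. The alternatives on X-linked share, Gm42418 and the 6% doublet rule were chosen after seeing the data, the last because the automatic threshold called 0 barcodes in the high-fat library, so leaving out its calls was not run. No paired analysis was possible because there is 1 library per group. Low counts limit single genes, and sampling between animals cannot be judged.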
